A study of Sus scrofa with 13 samples.

Results

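The genes described here are 31 genes of cholesterol synthesis and sterol homeostasis, picked by symbol with earlier results of these data known. They fall into 8 genes of the mevalonate steps, 10 of the sterol steps, 5 of the control of SREBP and 8 of sterol uptake, transport inside the cell and efflux. All 31 had exactly 1 row among the 35670 genes of the count table, and all 31 were among the 16481 genes with enough reads to be tested. RNA was sequenced from 13 liver libraries of female Yorkshire pigs, a breed of domestic pig, in a study that asked how human bone marrow-derived mesenchymal stromal cells (BM-MSCs) given by 2 routes alter hepatic ischemia and reperfusion injury (IRI). The baseline group held 2 liver biopsies with neither ischemia nor reperfusion, numbered 1a and 2. The ischemic control group held 3 livers that had 45 min of ischemia, with the hepatic artery, the portal vein and the hepatic veins clamped, and 6 h of reperfusion without any cells. The arterial infusion group and the portal infusion group held 4 livers each, with the same 45 min of ischemia and 6 h of reperfusion and with human BM-MSCs at a dose of 3 M (M for mega) cells per kg of body weight given into the hepatic artery or into the portal vein. The study took biopsies from its pigs before the clamps were placed and again at the end of reperfusion, so that baseline biopsies come from pigs that were later reperfused. Which pigs these were, and their age, is not given in the sources used here, and the baseline libraries were treated as unpaired with the others. The infused cells were human, and their reads were not separated from those of the pig liver here.

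Cholesterol is built from acetyl-CoA. The mevalonate steps make isoprenoid units and join them into squalene, and the sterol steps oxidize squalene, close it into lanosterol and trim lanosterol to cholesterol. Hepatocytes sense sterol in the membrane of the endoplasmic reticulum, where SCAP escorts the SREBP transcription factors to the Golgi when sterol is low, and where INSIG proteins hold SCAP back when sterol is high. SREBP-2 drives most genes of both sets of steps and INSIG1 itself, so that INSIG1 is both a target of the pathway and its brake.

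The total count per library lay between 18975413 and 35949178. Hepatocyte markers were abundant everywhere, and all 8 had reads in every library, but their summed level was lowest in 4 libraries. Ischemic control 2, arterial infusion 1, portal infusion 1 and portal infusion 4 had 33775 to 64389 CPM (counts scaled to a total of 1 M per library) on these markers, and the other 9 libraries had 79539 to 146120. The same 4 libraries lay at one end of the first principal component of the 500 most variable genes, which held 64.0% of their variance. The 7 Kupffer cell and macrophage markers summed to 1046 to 1572 CPM in ischemic controls, 551 to 948 CPM in the infused livers and 575 to 1103 CPM at baseline, so that controls and infused livers did not overlap. The 4 neutrophil markers with a row summed to 25.5 to 26.8 CPM at baseline, 44.6 to 385 CPM in controls and 18.0 to 328 CPM in infused livers. Across the 13 libraries the other lists ranged from 13.5 to 98.4 CPM for T and NK lymphocyte markers, from 166 to 527 CPM for endothelial, from 111 to 1516 CPM for stellate and stromal, from 10.4 to 48.0 CPM for cholangiocyte and from 34.0 to 875 CPM for erythroid markers. Endothelial markers summed to 215 to 392 CPM in controls and 166 to 205 CPM in portal livers, which did not overlap. In arterial livers they summed to 185 to 527 CPM, which overlapped with controls. Stellate and stromal markers summed to 218 to 1516 CPM in controls and 111 to 1070 CPM in infused livers, which overlapped, and 5 of the 7 genes had a log2 fold change below 0, with a median of -0.92. Mitochondrial genes took 4.84% to 7.94% of the counts in controls, 5.58% to 16.0% in 7 infused livers and 22.04% in arterial 2, and 6.99% and 4.51% at baseline. The genes with at least 1 read numbered 16993 to 20282 in controls, 13581 to 18629 in infused livers, and 19711 and 18949 at baseline. The part of these differences in the results below was not tested. In bulk liver, fewer cells of a type and less RNA per cell cannot be told apart.

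**Figure D1:**
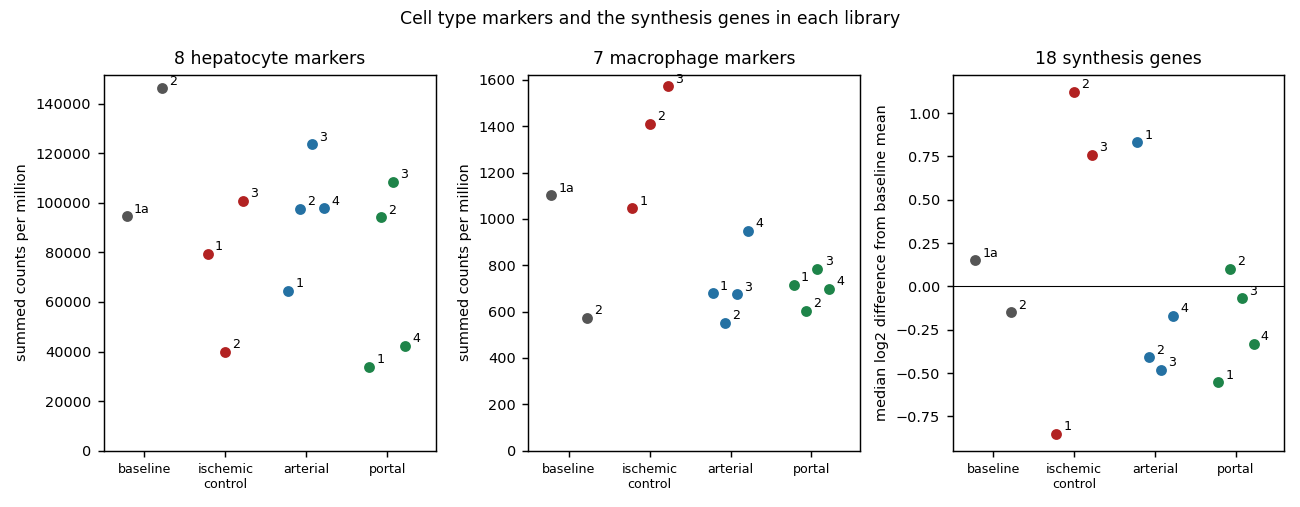
Each point is 1 library, numbered by replicate, in the 4 groups; the vertical axes give the summed CPM of 8 hepatocyte markers, the summed CPM of 7 Kupffer cell and macrophage markers, and the median over the 18 synthesis genes of the log2 difference from the baseline mean. Ischemic control 2, arterial 1, portal 1 and portal 4 are lowest in hepatocyte markers, the 3 ischemic controls lie above all 8 infused livers in macrophage markers, and ischemic controls 2 and 3 and arterial 1 are highest in the synthesis genes, at 1.12, 0.76 and 0.83.

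Values per library are given as normalized counts, the read count divided by the library's size factor. They compare 1 gene between libraries and not 1 gene with another, since gene length was not taken into account. No member passed the adjusted threshold of 0.05 in any of the 6 comparisons with edgeR's quasi-likelihood test, and neither did any other gene (0.0% of the genes tested in each), so that each difference below is a fitted value with its error and not a call. At an unadjusted p under 0.05, the same test gave 720 genes in ischemic control against baseline, 353 in all infused livers against ischemic control, 258 and 460 in the arterial and the portal group against control, 396 between the routes and 683 in all infused livers against baseline. Replicates differed widely: edgeR's common estimate of the biological variation between libraries of a group was 0.73 times the mean.

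The clearest pattern among the 31 genes was that of INSIG1, which encodes the sterol-dependent retention protein of the endoplasmic reticulum. INSIG1 (ENSSSCG00000016420, Sscrofa11.1, chr18:2885494-2898758) stood at 10329 and 7042 normalized counts in baseline livers 1a and 2. It stood at 16723, 14277 and 11821 in ischemic controls 1, 2 and 3. In the arterial group it stood at 6876, 5774, 7418 and 4849, and in the portal group at 4333, 6107, 3692 and 1743. Every infused liver was below every ischemic control, and every ischemic control was above both baseline livers.

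INSIG1 averaged 14274 ± 2451 (SD, n = 3) in controls and 5099 ± 1848 (SD, n = 8) in infused livers, a log2 fold change of -1.54 ± 0.35 (SE) with a 95% interval from -2.29 to -0.80. The unadjusted p was 0.000526 and the Benjamini-Hochberg adjusted p of edgeR's quasi-likelihood test was 1.00. The exact two-sided permutation test over these libraries gave p = 0.00606, which is the smallest the design of 8 against 3 allows. That p restates that the groups did not overlap, and it is not adjusted for the choice of INSIG1 among 31 genes. INSIG1 was the only member whose infused livers and controls did not overlap, 1 of 31, while 0.564% of all genes tested did not overlap in either direction and 0.34% lay lower in every infused liver. Leaving out any single library moved the fitted value between -1.70 and -1.37, and leaving out the 4 libraries lowest in hepatocyte markers gave -1.39. The macrophage markers given above also separated controls from infused livers, and the endothelial markers separated controls from portal livers but not from arterial livers. The part of these markers in the INSIG1 difference was not tested.

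By route, arterial livers averaged 6229 ± 1147 (SD, n = 4), with a log2 fold change against controls of -1.21 ± 0.42 (SE), and portal livers 3969 ± 1801 (SD, n = 4), with -1.87 ± 0.42 (SE). Both routes were compared with the same 3 controls, and since all 8 infused livers lay below these, INSIG1 could not overlap with controls in either route. It was 1 of 31 such members in the arterial comparison and 1 of 31 in the portal comparison, beside 3.19% and 3.72% of all genes, and these counts add nothing independent to the pooled value. In portal livers alone, DESeq2 over all 13 libraries gave an adjusted p of 0.0449, past the threshold as for 0.0243% of all genes, and DESeq2 over the portal and control libraries 0.274. The routes themselves overlapped, with a log2 fold change of 0.66 ± 0.39 (SE) for arterial against portal and a 95% interval from -0.17 to 1.50. Against baseline, controls were higher by 0.71 ± 0.51 (SE) on the log2 scale, or 0.43 without baseline 2, with an exact permutation p of 0.1, the smallest possible, and infused livers stood at -0.83 ± 0.41 (SE) with overlapping groups.

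**Figure D2:**
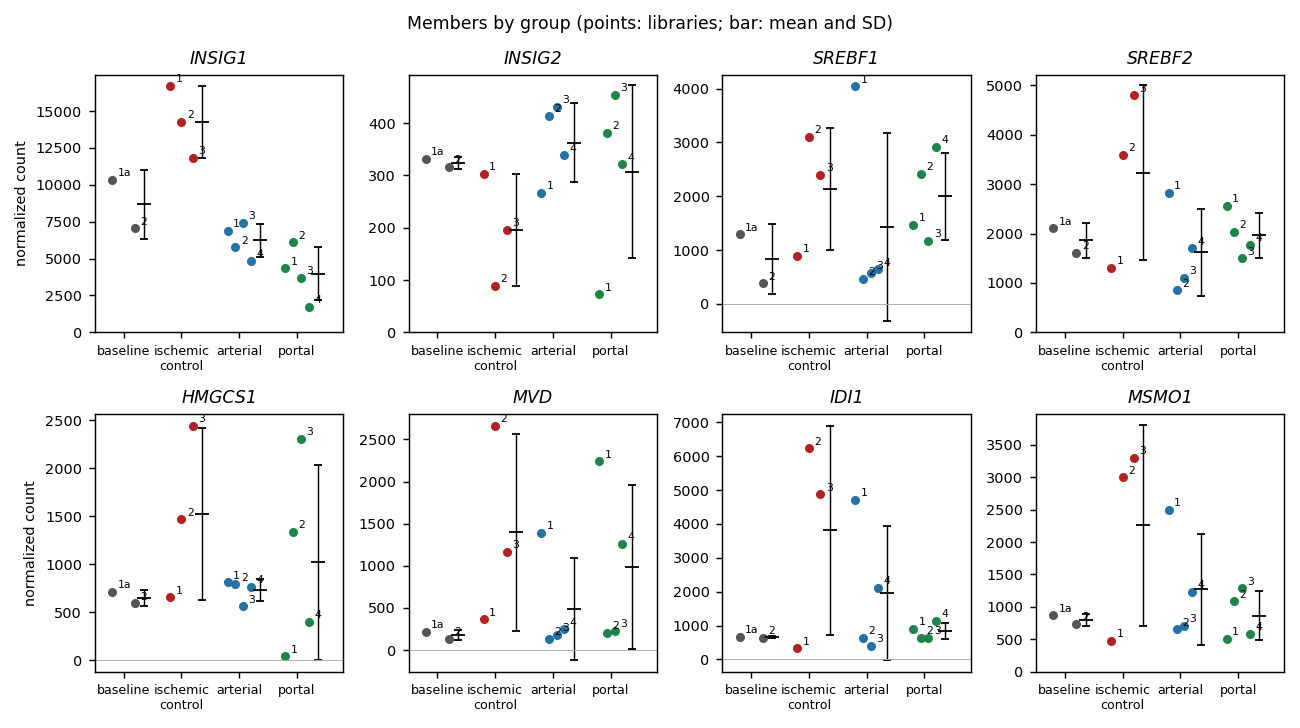
Normalized counts of 8 members, each point 1 library numbered by replicate, in the baseline, ischemic control, arterial and portal groups; the black bar is the group mean with its SD. INSIG1 is lower in all 8 infused livers than in the 3 ischemic controls, while for IDI1, MSMO1 and SREBF2 the 3 highest libraries are ischemic controls 2 and 3 and arterial 1, and ischemic control 1 lies below both baseline livers.

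INSIG2, the second INSIG gene, did not follow INSIG1. Ischemic controls 1, 2 and 3 had 303, 89.3 and 196 normalized counts, below the 332 and 316 of the baseline livers. Arterial livers had 267, 414, 431 and 339, and portal livers 73.0, 381, 454 and 321. The infused group averaged 335 ± 123 (SD, n = 8) and the controls 196 ± 107 (SD, n = 3), which overlapped, with a log2 fold change of 0.73 ± 0.53 (SE). Its lowest values were those of portal 1 and ischemic control 2, both among the libraries low in hepatocyte markers.

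SREBF2, which encodes SREBP-2, had 2110 and 1609 normalized counts at baseline and 1308, 3595 and 4795 in ischemic controls 1 to 3. It had 2825, 849, 1106 and 1704 in arterial livers and 2561, 2034, 1500 and 1767 in portal livers. Controls 2 and 3 were the highest of all 13 libraries and control 1 was below both baseline livers, so that the groups overlapped. For SREBF2 the log2 fold change was -0.87 ± 0.39 (SE) for all infused livers against control, with an unadjusted edgeR p of 0.0429, and 0.78 ± 0.57 (SE) for control against baseline. For arterial livers against control it was -1.0 ± 0.46 (SE).

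SREBF1, which encodes SREBP-1, the form tied more to fatty acid synthesis, had 1293 and 381 normalized counts at baseline and 889, 3108 and 2399 in controls. Arterial 1 had 4044, the highest of all libraries, while arterial 2 to 4 had 469 to 642, and portal livers had 1465, 2420, 1178 and 2925. Its log2 fold change was 1.31 ± 0.90 (SE) for control against baseline and -0.34 ± 0.63 (SE) for infused against control. Both rested on single libraries, the former being 0.65 without baseline 2 and 2.47 without baseline 1a, and the latter -0.0094 without ischemic control 2 and -1.02 without arterial 1. SCAP, the escort protein, was steadier, between 643 in arterial 2 and 2384 in portal 1. Arterial livers had 643 to 1097 and portal livers 957 to 2384, a log2 fold change between the routes of -0.75 ± 0.34 (SE) with overlapping groups. SCAP was the only member with an unadjusted p under 0.05 between the routes, at 0.0411 in edgeR, where 2.4% of all genes had one.

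In ischemic control against baseline, 22 of 31 members had a log2 fold change above 0, beside 50.2% of all genes tested. The median over the members was 0.45 and over all genes 0.0048. By role, the median was 1.06 over the 8 genes of the mevalonate steps, of which 7 were higher, 0.30 over the 10 of the sterol steps, of which 8 were higher, 0.71 over the 5 of SREBP control, of which 4 were higher, and -0.22 over the 8 of uptake, transport and efflux, of which 3 were higher. Only MVD and IDI1 had an unadjusted edgeR p under 0.05, 2 of 31, beside 4.37% of all genes. In 6 of 31 members the 2 groups did not overlap, MVD, INSIG1, NPC2 and SCARB1 being higher in controls and INSIG2 and MYLIP lower, while 31.1% of all genes did not overlap. The share of members was thus below that of all genes by this count. The adjusted p-values of edgeR's quasi-likelihood test lay between 0.978 and 0.999. The median moved between 0.17 without baseline 2 and 0.61 without ischemic control 1, and it was 0.21 without the 4 libraries low in hepatocyte markers.

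In all infused livers against ischemic control, 26 of 31 members had a log2 fold change below 0, beside 52.1% of all genes. The median over the members was -0.42 and over all genes -0.02. By role, the median was -0.67 over the mevalonate steps, with 7 of 8 lower, -0.50 over the sterol steps, with 10 of 10 lower, -0.34 over SREBP control, with 4 of 5 lower, and -0.03 over uptake, transport and efflux, with 5 of 8 lower. An unadjusted edgeR p under 0.05 was found for INSIG1, SC5D, IDI1 and SREBF2, all lower, 4 of 31, beside 1.41% of all genes in that direction. The size of the shift depended on single controls, since the median was -0.22 without ischemic control 2, -0.30 without ischemic control 3 and -0.70 without ischemic control 1. It was -0.30 without the 4 libraries low in hepatocyte markers. The 3 controls enter this comparison and that with baseline, so that the values of both share them.

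**Figure D3:**
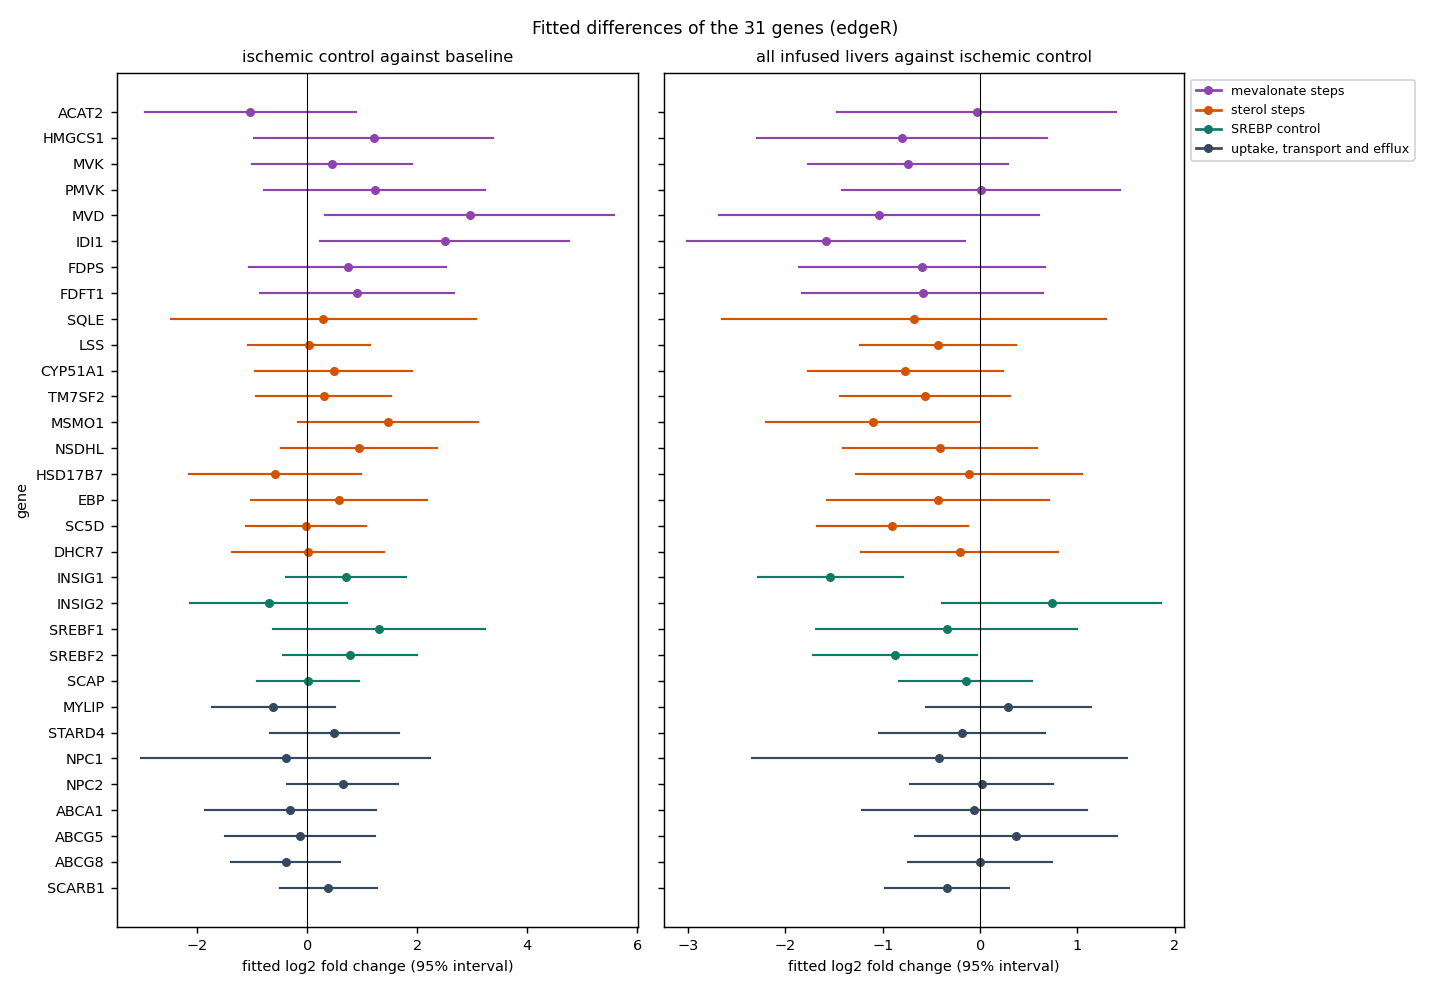
Fitted log2 fold changes of the 31 members with their 95% intervals from edgeR, for ischemic control against baseline (left) and all infused livers against ischemic control (right), colored by role. On the left the intervals of MVD and IDI1 lie above 0, and on the right those of INSIG1, IDI1, SC5D and SREBF2 lie below 0.

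The mevalonate steps begin with ACAT2, the cytosolic thiolase that joins acetyl-CoA units. ACAT2 had 563 and 947 normalized counts at baseline, 354, 70.0 and 662 in controls, 112, 261, 501 and 392 in arterial livers and 76.8, 478, 752 and 312 in portal livers. It was the only synthesis gene with a log2 fold change of -1 or less in control against baseline, at -1.03 ± 0.90 (SE), beside 11.3% of all genes, and stood at -1.07 ± 0.73 (SE) in infused livers against baseline. The former value was -0.54 without ischemic control 2, -1.79 without ischemic control 3 and -0.56 without the 4 libraries low in hepatocyte markers, and the latter -0.70 without baseline 2 and -0.61 without the 4 libraries. Its 3 lowest libraries were ischemic control 2, portal 1 and arterial 1, all low in hepatocyte markers.

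HMGCS1, the synthase that makes HMG-CoA, had 711 and 595 normalized counts at baseline and 657, 1469 and 2443 in controls. It had 811, 792, 561 and 764 in arterial livers and 41.5, 1337, 2305 and 399 in portal livers. The range within the portal group, from 33 reads in portal 1 to 2305 normalized counts in portal 3, was wider than any difference between group means, and the highest library of all was 58.8 times the lowest. Portal 1 was the library lowest in hepatocyte markers. For HMGCS1 the log2 fold change was 1.21 ± 1.02 (SE) for control against baseline, -0.80 ± 0.70 (SE) for infused against control and -1.06 ± 0.81 (SE) for arterial against control. As single libraries were left out, these ranged from 0.71 to 1.56, from -1.21 to -0.31 and from -1.41 to -0.56. In each comparison the value smallest in size was that without ischemic control 3.

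MVD, the mevalonate diphosphate decarboxylase (ENSSSCG00000034905, chr6:1008100-1014303), had the largest fitted value of any member in control against baseline. It stood at 216 and 133 normalized counts at baseline and at 364, 2665 and 1169 in ischemic controls 1 to 3, all above baseline. Arterial livers had 1394, 133, 179 and 248, and portal livers 2240, 203, 227 and 1262. The 3 infused livers over 1000 were arterial 1, portal 1 and portal 4, which are the infused livers low in hepatocyte markers, and the other 5 infused livers lay between 133 and 248, near baseline. Control 3, with 1169, was not among the libraries low in hepatocyte markers.

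The log2 fold change of MVD in control against baseline was 2.95 ± 1.23 (SE), with an unadjusted p of 0.0304 and an exact permutation p of 0.2 over 3 against 2 livers, a design that cannot go below 0.1. DESeq2 over the 5 libraries compared called it, with an adjusted p of 0.00727, as it called 1.01% of all genes, and DESeq2 over all 13 did not. The fitted value was 2.16 without ischemic control 2 and 2.13 without the 4 libraries. In infused livers it was -1.04 ± 0.77 (SE) against control and 1.92 ± 1.08 (SE) against baseline. The latter was 0.21 without the 4 libraries, and the former was -0.22 without ischemic control 2 and -1.93 without the 4 libraries.

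IDI1, the isomerase that makes the second isoprenoid unit, had 673 and 642 normalized counts at baseline. Ischemic control 1 had 331, the lowest of all libraries, and controls 2 and 3 had 6232 and 4877, the highest. Arterial livers had 4719, 641, 400 and 2107 and portal livers 905, 644, 632 and 1140. The 3 controls thus lay on both sides of every other library, with a mean of 3814 ± 3091 (SD, n = 3), and infused livers averaged 1398 ± 1443 (SD, n = 8). The log2 fold change was 2.50 ± 1.06 (SE) for control against baseline, with an unadjusted edgeR p of 0.0329. It was -1.58 ± 0.67 (SE) for infused against control, with an unadjusted edgeR p of 0.0318, and -2.21 ± 0.81 (SE) for portal against control, and the exact permutation tests gave 0.4, 0.315 and 0.286. Between the routes, IDI1 had the only log2 fold change of 1 or more among the members, 1.27 ± 0.75 (SE) for arterial against portal, beside 8.64% of all genes, and this was 0.36 without arterial 1 and 0.68 without the 4 libraries low in hepatocyte markers.

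The other 4 genes of the mevalonate steps also had ischemic control 1 below controls 2 and 3. PMVK, the phosphomevalonate kinase, had 629, 2910 and 1044 normalized counts in controls, 736 and 527 at baseline, and 5197 in arterial 1 beside 562 to 649 in arterial 2 to 4. Portal livers had 1858, 871, 706 and 2067 of PMVK, whose log2 fold change was 1.23 ± 0.94 (SE) in control against baseline and 1.24 ± 0.86 (SE) in infused against baseline, which were 0.41 and 0.13 without the 4 libraries low in hepatocyte markers. The former was 0.43 without ischemic control 2 and the latter 0.49 without arterial 1. MVK, the mevalonate kinase, had 277, 1347 and 1496 in controls, 677 and 818 at baseline and 322 to 1290 in infused livers. FDPS, which makes farnesyl diphosphate, had 1600, 9165 and 4197 in controls, 2322 and 3490 at baseline and 1467 to 9269 in infused livers. FDFT1, the squalene synthase, had 157, 1655 and 1479 in controls, 425 and 726 at baseline and 352 to 1737 in infused livers. Controls 2 and 3 were above both baseline livers for all 4 genes, and control 1 was below both for MVK, FDPS and FDFT1 and between them for PMVK.

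**Figure D4:**
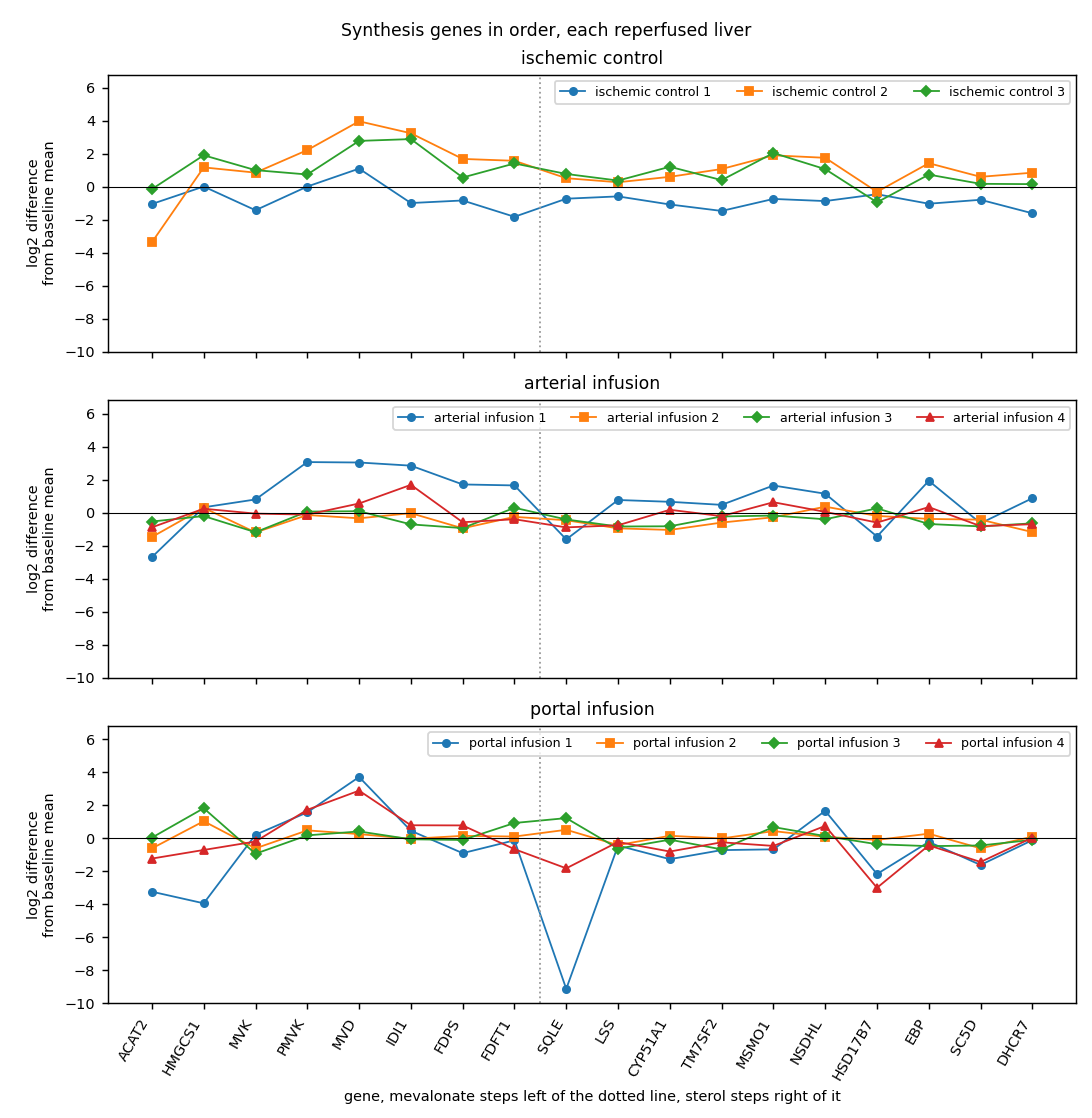
The 18 synthesis genes in pathway order along the horizontal axis, with the difference of log2(normalized count + 1) from the baseline mean on the vertical axis and 1 line per reperfused liver. Ischemic controls 2 and 3 lie above baseline for 16 of 18 genes each and ischemic control 1 for 3; in the portal panel SQLE of portal 1, at 0 reads, is the lowest point.

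The sterol steps begin with SQLE, the squalene epoxidase, a rate-limiting enzyme of this branch. SQLE had 623 and 496 normalized counts at baseline, 336, 797 and 952 in controls, 179, 402, 415 and 298 in arterial livers and 0, 797, 1301 and 157 in portal livers. Portal 1 had no read of it, which allows up to 3 reads or 3.78 normalized counts, so that portal 3 was at least 345-fold higher. That range lay within 1 treatment group, and its low end was portal 1, the library lowest in hepatocyte markers and with the fewest genes detected. For SQLE the log2 fold change was 0.29 ± 1.30 (SE) in control against baseline, -0.68 ± 0.92 (SE) in infused against control and -1.10 ± 1.07 (SE) in arterial against control. The infused value was -0.035 without the 4 libraries low in hepatocyte markers and -0.41 without ischemic control 3, and the value against baseline was 0.028 without ischemic control 3.

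MSMO1, the sterol C4 methyl oxidase, had 867 and 738 normalized counts at baseline and 479, 2996 and 3302 in controls. It had 2494, 656, 705 and 1234 in arterial livers and 503, 1084, 1286 and 582 in portal livers. As for IDI1, control 1 was the lowest of all libraries, controls 2 and 3 were the highest and arterial 1 came next. For MSMO1 the log2 fold change was 1.46 ± 0.77 (SE) in control against baseline, -1.10 ± 0.52 (SE) in infused against control and -1.37 ± 0.61 (SE) in portal against control, where the unadjusted edgeR p was 0.0399. Without the 4 libraries low in hepatocyte markers, the portal value was -0.65.

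SC5D, the lathosterol oxidase, lay in a narrow range in the infused livers. It had 1213 and 2709 normalized counts at baseline and 1048, 2751 and 2050 in controls. It had 1155, 1344, 1012 and 1025 in arterial livers and 592, 1191, 1343 and 671 in portal livers. The infused livers averaged 1042 ± 283 (SD, n = 8) and of the controls only control 1 fell among them. The log2 fold change was -0.90 ± 0.36 (SE) against control, with an unadjusted edgeR p of 0.0254 and an exact permutation p of 0.0485, and -1.03 ± 0.42 (SE) for portal livers alone, which was -0.28 without the 4 libraries. Against baseline it was -0.92 ± 0.42 (SE), which made SC5D the only member with an unadjusted edgeR p under 0.05 there, 1 of 31, beside 4.14% of all genes.

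CYP51A1, the lanosterol demethylase, had 2009 and 1421 normalized counts at baseline and 802, 2564 and 3915 in controls, with 704 to 2653 in infused livers. Its log2 fold change was 0.48 ± 0.67 (SE) in control against baseline, which was -0.02 without ischemic control 3, and -0.77 ± 0.47 (SE) in infused against control. TM7SF2, a sterol reductase, had 1617, 9407 and 5901 in controls beside 4195 and 4756 at baseline and 2724 to 6169 in infused livers. NSDHL, which acts with MSMO1 in removing the C4 methyl groups, had 707, 4357 and 2706 in controls, 1102 and 1512 at baseline and 973 to 4102 in infused livers. For these 3 genes control 1 was below both baseline livers and controls 2 and 3 above both.

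EBP, the sterol isomerase, had 774, 4246 and 2630 normalized counts in controls, 1144 and 2180 at baseline and 976 to 5990 in infused livers. DHCR7, the last reductase, had 1063, 5854 and 3621 in controls, 2463 and 4268 at baseline and 1426 to 5923 in infused livers. LSS, which closes squalene epoxide into lanosterol, had 1987, 3600 and 3863 in controls, 2464 and 3601 at baseline and 1534 to 5048 in infused livers. Arterial 1 was the highest of all libraries for each of these 3 genes. HSD17B7, the sterol keto reductase, ran otherwise, with 3396, 3749 and 2417 in controls, 3720 and 5804 at baseline, and its lowest values of 1697, 1037 and 582 in arterial 1, portal 1 and portal 4.

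Counted over the 18 synthesis genes, the 3 ischemic controls were not alike. Control 1 was above the baseline mean for 3 of 18 genes and was the lowest of all 13 libraries for 8 of them. Controls 2 and 3 were above it for 16 of 18 each and were the highest library for 5 and 4. In the arterial group, livers 1 to 4 were above the baseline mean for 14, 2, 4 and 7 genes, and arterial 1 was the highest library for 6. In the portal group, livers 1 to 4 were above it for 5, 11, 8 and 6 genes. The 4 libraries low in hepatocyte markers held the highest value for 11 of 18 genes and the lowest for 6, and their part in the spread was not tested. Control 1, the lowest for 8 genes, and control 3, the highest for 4, were not among them.

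**Figure D5:**
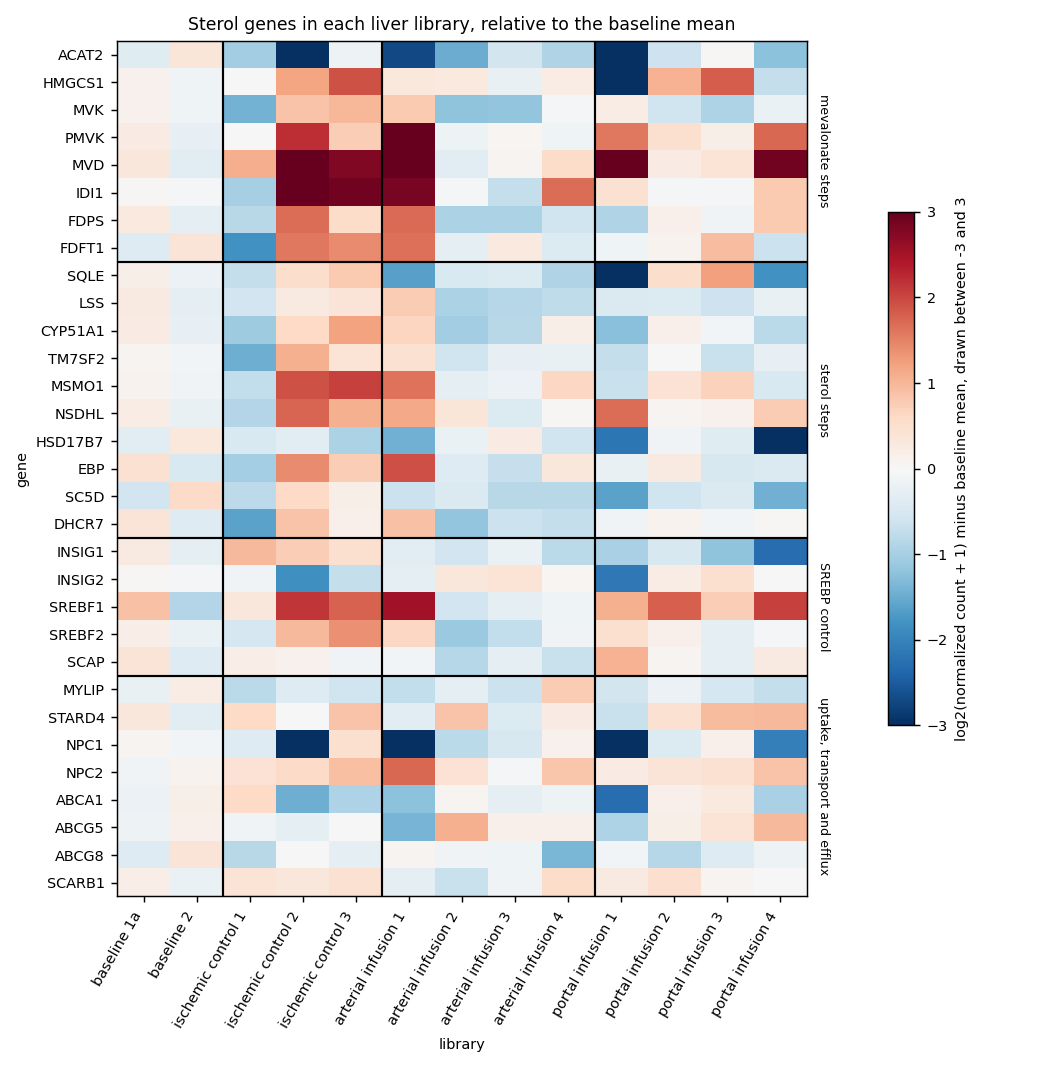
Rows are the 31 members in pathway order, split by role, and columns the 13 libraries, split by group; color gives the difference of log2(normalized count + 1) from the baseline mean, drawn between -3 and 3. Ischemic controls 2 and 3 and arterial 1 are red over most of the mevalonate and sterol steps, ischemic control 1 is blue over most of them, and INSIG1 is red in all 3 controls and blue in all 8 infused livers.

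The order of INSIG1 across libraries differed from that of the synthesis genes in ischemic control 1 and arterial 1. Ischemic control 1, the lowest of all libraries for 8 synthesis genes, had the highest INSIG1 value, 16723 normalized counts. Arterial 1, the highest for 6 synthesis genes, had 6876, below both baseline livers. Ischemic controls 2 and 3, the highest for 5 and 4 synthesis genes, went the other way, with the next highest INSIG1 values, 14277 and 11821. Whether INSIG1 and the synthesis genes go together over all 13 libraries was not tested.

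The genes of uptake, transport and efflux had the role medians nearest to 0 in both of these comparisons. MYLIP, the ubiquitin ligase that marks lipoprotein receptors for breakdown, had 154, 207 and 179 normalized counts in controls, below the 234 and 315 of baseline, with 162 to 458 in infused livers. Its log2 fold change was -0.62 ± 0.52 (SE) in control against baseline and 0.29 ± 0.40 (SE) in infused against control. SCARB1, the HDL receptor, had 1924, 1812 and 1976 in controls and 1262 and 1642 at baseline, with 910 to 2117 in infused livers. NPC2, the lysosomal sterol carrier, had 1357, 1481 and 1875 in controls, 933 and 1076 at baseline and 979 to 3313 in infused livers. These 3 genes separated controls from baseline, each with an exact permutation p of 0.1, the smallest possible, and each overlapped between controls and infused livers.

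NPC1, the membrane protein that takes sterol from NPC2, was lowest in libraries low in hepatocyte markers. It had 12.6 normalized counts in portal 1, from 10 reads, 24.1 in arterial 1, 43.8 in ischemic control 2 and 110 in portal 4, and between 264 and 645 in the other 9 libraries. ABCA1, which exports cholesterol to apolipoprotein A-I, had 2580, 618 and 897 in controls, 1525 and 1925 at baseline, 735 to 1820 in arterial livers and 351 to 2091 in portal livers. Its log2 fold change was -0.31 ± 0.73 (SE) in control against baseline and -0.06 ± 0.54 (SE) in infused against control. Its sign rested on single libraries, the latter being 0.84 without ischemic control 1 and -0.42 without ischemic control 2.

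ABCG5 and ABCG8 encode the subunits of the transporter that moves sterol into bile, and they lie side by side on chr3, ABCG8 at 96596975 to 96616224 and ABCG5 at 96616304 to 96656893 of Sscrofa11.1, with 79 bases between them. ABCG5 had 229 and 285 normalized counts at baseline, 237, 212 and 254 in controls, 96.4, 532, 284 and 283 in arterial livers and 133, 288, 339 and 502 in portal livers. ABCG8 had 497 and 861 at baseline, 366, 651 and 546 in controls, 687, 610, 598 and 253 in arterial livers and 617, 361, 500 and 585 in portal livers. The neighbors did not share an order within the arterial group, where arterial 1 was lowest for ABCG5 and highest for ABCG8. The log2 fold change of ABCG5 was -0.13 ± 0.64 (SE) in control against baseline and 0.37 ± 0.49 (SE) in infused against control. STARD4, which carries sterol through the cytosol, lay between 501 in portal 1 and 1561 in portal 4, with baseline and controls overlapping.

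Among the routes taken singly, 24 of 31 members were lower in arterial livers than in controls and 25 of 31 in portal livers, beside 49.2% and 51.9% of all genes, with medians of -0.41 and -0.39. The unadjusted edgeR p was under 0.05 for 2 members in the arterial comparison, INSIG1 and SREBF2, beside 1.57% of all genes, and for 4 in the portal comparison, INSIG1, IDI1, SC5D and MSMO1, beside 2.79%. MVD stood at -1.51 ± 0.91 (SE) in arterial livers against control, which was -0.69 without ischemic control 2 and -2.89 without arterial 1. The arterial median was -0.90 without arterial 1, the liver high in synthesis genes, and -0.28 without arterial 2, and the portal median was -0.19 without portal 1 and -0.07 without the 4 libraries low in hepatocyte markers. Between the routes, the median was 0.18 with 0 of 31 members not overlapping, beside 1.41% of all genes, and it turned to -0.31 without the 4 libraries. Against baseline, the infused livers had a median of -0.10 with 15 members higher and 16 lower, beside 49.4% of all genes higher, and 0 of 31 did not overlap, beside 10.1% of all genes. A difference in any direction between the 4 groups had an unadjusted p of 0.00332 for INSIG1 and 0.042 for IDI1, with adjusted p-values of 1.00 in edgeR's quasi-likelihood test.

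Of 15 SREBP-1 and fatty acid synthesis genes, all tested, 7 were higher and 8 lower in control against baseline, with a median of -0.02, and 6 were higher and 9 lower in infused against control, with a median of -0.07. There ACACB, the mitochondrial acetyl-CoA carboxylase, stood at -2.26 ± 0.92 (SE) at 9.72 against 30.1 mean normalized counts, and GPAM, the first enzyme of glycerolipid synthesis, at 0.92 ± 0.41 (SE), both with an unadjusted edgeR p under 0.05. ACACB had few reads, with 0 to 3.74 normalized counts in portal livers, 5.68 to 30.4 in arterial livers and 8.76 to 48.4 in controls. In control against baseline, ACACA, the cytosolic carboxylase, stood at 1.18 ± 0.79 (SE) and FASN, the fatty acid synthase, at 1.05 ± 0.74 (SE). None of these 15 genes passed the adjusted threshold in either comparison.

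Of 9 SREBP processing and sterol sensing partners, 7 were tested, with medians of -0.54 in control against baseline, where 1 was higher, and -0.18 in infused against control, where 3 were higher. SPRING1, which helps the protease that cuts SREBP, stood at 0.67 ± 0.41 (SE) and RNF139, a ubiquitin ligase of the endoplasmic reticulum, at -0.60 ± 0.41 (SE) in the first. MBTPS1, the site-1 protease, stood at -0.42 ± 0.36 (SE) in the second. Of 15 genes of LXR, esterification and transport, 14 were tested, with medians of 0.10, where 9 were higher, and -0.10, where 4 were higher. RXRA, the partner receptor of LXR, had 3770 to 5658 normalized counts in controls and 1170 to 1974 at baseline, a log2 fold change of 1.56 ± 0.72 (SE) with an unadjusted edgeR p of 0.0461. STARD3 stood at 0.81 ± 0.58 (SE) there, and in infused against control NR1H2 (LXR beta) stood at -0.63 ± 0.32 (SE) and VLDLR at -1.21 ± 0.82 (SE).

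Of 13 genes of the other branches of the mevalonate pathway, which lead to dolichol, ubiquinone and prenylated proteins, 11 were tested, with medians of -0.09, where 3 were higher, and 0.00094, where 6 were higher. PGGT1B, a prenyltransferase subunit, stood at -0.65 ± 0.55 (SE) in control against baseline and 0.55 ± 0.43 (SE) in infused against control. COQ2, of ubiquinone synthesis, stood at -0.39 ± 0.49 (SE) in the first and LBR, a sterol reductase of the nuclear envelope, at 0.34 ± 0.34 (SE) in the second. None of the genes in these 4 lists passed the adjusted threshold of edgeR's quasi-likelihood test in any of the 6 comparisons.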

How the data were processed

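Poly-A RNA of 13 pig liver libraries was sequenced as non-directional paired-end reads. Mapping by the authors used HISAT2 and Sscrofa11.1. The deposited values are raw counts per gene from FeatureCounts on Ensembl gene models. How reads with several matches or strand were treated, and the tools' versions, are not given in the sources used here. The study's methods name a NucleoSpin kit and the labels a miRNeasy kit. Groups and replicate numbers come from the labels, and 0 columns were left without a sample. Replicates of a group were not copies of each other (smallest chi-square per gene 83.6). The study's text treats each reperfused library as a pig of its own, and for the baseline libraries the source pigs are not given.

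Fits used edgeR 4.0.16 (R 4.3.3) with TMM factors on genes kept by filterByExpr, a quasi-likelihood test, all 4 groups together, Benjamini-Hochberg adjustment over 16481 genes, threshold 0.05. SE is the fold change over the root of F. Normalized counts are counts over DESeq2 1.42.0 size factors. Exact two-sided permutation tests used log2(normalized count + 1). Groups are said not to overlap where every library of a group lies on the same side of all libraries of the other. Counts are reads, not molecules, so floors cover counting error only. Alternatives were RLE and upper quartile factors, other count filters, DESeq2, limma 3.58.1 voom, sva 3.50.0, a replicate block, each library left out, and, added after seeing the data, leaving out the 4 libraries lowest in hepatocyte markers. The members and lists were chosen with earlier results of these data known. All members are named. A fold change with its SE is given for members at 1 or more in size on the log2 scale and a fixed set (HMGCS1, MVD, SQLE, CYP51A1, INSIG1, SREBF1, SREBF2, MYLIP, ABCA1, ABCG5), and for the 2 genes with the smallest p of each neighboring list, of which 1 value is not reported here; those of INSIG2 and SCAP, and the other values of SC5D, IDI1, MSMO1 and INSIG1, were added after their values were seen. Coordinates are those of RefSeq on Sscrofa11.1, found by symbol for 27 of 31 members.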

Additional observations from a re-analysis of the deposited data

Results flagged for a closer look

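Of 62 groups of 4 livers examined over the 31 genes, 6 held a library far from the other 3 by Dixon's test at a critical value of 0.829, which chance gives in about 1 in 20 groups. All 6 were in the arterial infusion group. Arterial 1 was far above the other 3 livers for PMVK, at 5197 normalized counts beside 562 to 649, for FDPS, at 9269 beside 1467 to 1894, for LSS, at 5048 beside 1534 to 1745, and for SREBF1, at 4044 beside 469 to 642. Arterial 1 was the arterial liver lowest in hepatocyte markers, at 64389 CPM, and the part of these markers in the 4 values was not tested. Arterial 3 was far below the others for HMGCS1, at 561 beside 764 to 811. Arterial 4 was far below the others for ABCG8, at 253 beside 598 to 687.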

How the results depend on the processing

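The number of members past the adjusted threshold was 0 in 132 of 135 results over all alternatives. The exceptions were 1 member (MVD, log2 fold change 3.04) in control against baseline by DESeq2 over the groups compared, 1 (INSIG1, -1.85) in portal livers against control by DESeq2 over all 13 libraries, and 1 (IDI1) in the test of any difference with no filter on low counts. Over all genes, edgeR called 0 in every comparison. With no filter on low counts it called 30 in control against baseline, 19 in infused, 11 in arterial and 14 in portal livers against control, 5 between the routes, 25 in infused livers against baseline and 95 for any difference. DESeq2 over all 13 libraries called 5, MFSD2A among them, in control against baseline, 1 (CCL3L1) in infused and 4 (INSIG1, DDIT4L, PCSK1N and ENSSSCG00000020152) in portal livers against control, 1 (DDIT4L) between the routes and 17 in infused livers against baseline. DESeq2 over the groups compared called 166 in control against baseline, 3 without a symbol in portal livers against control and 16 in infused livers against baseline. limma voom called 49 in infused livers against baseline and 46 for any difference. Without the 4 libraries low in hepatocyte markers 1 gene (ENSSSCG00000059961) was called in infused livers against control, in arterial livers against control and for any difference. Genes other than INSIG1, MVD and IDI1 named here were chosen after their values were seen.

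Of 1031 values of named genes under all alternatives, 1014 kept their sign and their side of the threshold, 2 passed it (MVD and INSIG1 above) and 15 changed sign, none of them past the threshold. ABCA1 in infused against control turned to 0.52 with voom, 0.11 with 1 surrogate variable and 0.027 without the 4 libraries, and ranged from -0.42 to 0.84 as single libraries were left out. ABCA1 in control against baseline turned to 0.24 with 1 surrogate variable and 0.037 without the 4 libraries, and ranged from -1.21 to 0.046. With 1 surrogate variable, ABCG5 in control against baseline was 0.27, and MVD and PMVK in infused livers against baseline were -0.075 and -0.022. CYP51A1 in control against baseline ranged from -0.019 to 0.89 as single libraries were left out. The cause was not tested.

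The median over the members moved beyond the typical spread in 3 cases. Between the routes it was -0.32 with voom and -0.31 without the 4 libraries, and in arterial livers against control it ranged from -0.90 to -0.28 as single libraries were left out. The median of all genes moved by over 0.1 with the replicate block, DESeq2 over the groups compared and 1 surrogate variable, to values from -0.17 to 0.14. Libraries with the same replicate number correlated between -0.42 and 0.43 in their deviations from the group means, and those with different numbers between -0.53 and 0.44. This cannot settle whether a baseline library shares a pig with another library, since the deviations of the 2 baseline libraries mirror each other. With the replicate number as a block, 0 members were called, the member median was 0.35 in control against baseline and -0.49 in infused against control, and SQLE in control against baseline was -0.56.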
